A study of Mus musculus with 8 samples.

Results

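The genes examined here encode the 4 mouse Notch receptors (Notch1, Notch2, Notch3 and Notch4), 4 of their ligands (Dll1, Dll4, Jag1 and Jag2) and the nuclear coactivator Maml2. They were chosen by name. These genes and the gene lists used below were picked with earlier results of these data known. Every non-control probe of the array annotated with one of the 9 symbols was taken. This gave 13 probes among the 55681 non-control probes and 9 of 34947 gene names. Levels were measured in satellite cells, the stem cells of skeletal muscle, from the hindlimbs of C57BL/6J mice 3 to 4 months old. The cells were sorted, kept in culture overnight and infected with lentivirus that integrates into the genome. The control group received eGFP alone, and the other group received Hoxa9 with eGFP, a homeobox factor of axial and limb patterning. Both groups therefore carried an integrated virus, both expressed eGFP, and both were sorted for eGFP 5 days after infection. Which promoter drove the transgenes is not stated in the labels. Each group had 4 one-colour arrays from Agilent, and the replicate numbers 1 to 4 occur in both groups. The labels do not say that these came from separate animals or cultures, so p-values measure only the spread between these samples.

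Notch signalling passes between touching cells. A Delta-like or Jagged ligand on one cell pulls on a Notch receptor of its neighbour, the receptor is cut by ADAM proteases and gamma-secretase, and its intracellular part enters the nucleus. There it joins the DNA-binding protein RBPJ and a Mastermind-like coactivator such as Maml2, and genes of the Hes and Hey families are transcribed. In muscle, the pathway is known for keeping satellite cells quiescent and undifferentiated, and its activity declines as the cells enter differentiation.

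The level of each gene rests on 60-base probes. The first 30 bases of 6 of them are printed here. Notch1 and Maml2 each had a pair of probes whose measured differences stood apart. Notch3 and Jag1 had the largest changes among the receptors and ligands. Capitals mark the longest run made only of A and G within the bases shown.
Notch1, transcript position 5898: tcctgcagtGGAGGGGGccttgagacaggc
Notch1, transcript position 8221: ttgcttctttccaaaatcGAAAAGAAAGAA
Notch3, transcript position 7873: gcctaatAGAAAtgtttttaggctgttttt
Jag1, transcript position 5187: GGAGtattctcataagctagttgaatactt
Maml2, transcript position 364: AGGAAGGctagcaaacatgctaaggctaca
Maml2, transcript position 3797: ttGGGAttgtttttccctgcctgaacttca
The Notch1 probe at position 8221 is rich in purines. A and G made up 70% of its 60 bases, with a run of 19, against 65% and a run of 14 in the Notch1 probe at position 5898. The Notch3 probe had 43.3% and a run of 5. Over the 74 pairs of probes from different members, the longest shared run was 11 bases, between Jag2 and Jag1.

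The files place the probes on mm9. The Notch1 probes lie on the minus strand of chromosome 2 at 26319440 to 26319499 (position 5898) and at 26314630 to 26314689 (position 8221). The Notch3 probe lies on the minus strand of chromosome 17 at 32257848 to 32257907 and the Jag1 probe on the minus strand of chromosome 2 at 136907433 to 136907492. The Maml2 probes lie on the plus strand of chromosome 9, at 13424194 to 13424253 (position 364) and 13511227 to 13511286 (position 3797). Each pair of Notch1, Notch2 and Maml2 probes carries a single RefSeq transcript in the files, whereas the Dll1 probes carry a RefSeq and an Ensembl transcript. No annotation of mm9 was used here, so exons and untranslated regions are not stated.

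The 250 bases before the start of Jag1, Notch3 and Maml2 are shown because these 3 genes moved most. RefSeq lists 2 starts for Maml2, and the window of the second is printed. The windows come from RefSeq on GRCm38.p6, which held 11 such windows for the 9 genes, and are written 5′ to 3′ on the gene's own strand, with matches to the searched motifs in capitals.
Jag1, chr2:137116521-137116770, minus strand: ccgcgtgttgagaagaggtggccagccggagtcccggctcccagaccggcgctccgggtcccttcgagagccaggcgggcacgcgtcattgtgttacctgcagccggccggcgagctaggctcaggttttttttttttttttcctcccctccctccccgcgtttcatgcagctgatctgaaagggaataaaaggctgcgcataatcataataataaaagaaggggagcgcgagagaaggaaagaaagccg
Notch3, chr17:32166891-32167140, minus strand: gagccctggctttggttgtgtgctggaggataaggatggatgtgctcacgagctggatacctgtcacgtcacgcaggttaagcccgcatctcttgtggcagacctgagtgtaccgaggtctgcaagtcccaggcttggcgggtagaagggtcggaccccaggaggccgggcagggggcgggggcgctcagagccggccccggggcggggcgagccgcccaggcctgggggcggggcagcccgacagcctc
Maml2, chr9:13662210-13662459, plus strand: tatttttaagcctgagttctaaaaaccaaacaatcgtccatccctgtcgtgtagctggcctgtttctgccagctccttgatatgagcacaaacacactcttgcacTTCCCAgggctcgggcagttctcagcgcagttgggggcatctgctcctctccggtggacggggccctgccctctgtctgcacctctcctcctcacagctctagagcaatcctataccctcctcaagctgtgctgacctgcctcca
The RBPJ core TGGGAA, searched on both strands, occurred in 1 of the 11 windows, that of the second Maml2 start shown here. Its reverse, TTCCCA, began 145 bases before that start. Of 32851 RefSeq promoter windows of the same length, 21.6% held the RBPJ core. The PBX-HOXA9 motif TGATTTAT, also searched on both strands and not overlapping the first motif, occurred in 0 of the 11 windows and in 0.837% of all windows. A match is a description of letters and says nothing about binding.

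All values are log2 processed signals minus the array's 75th percentile, so 0 is the 75th percentile of an array and a difference of 1 is a doubling. Differences are Hoxa9-eGFP minus eGFP. The brighter Hoxa9 probe was 62.8-fold higher in the Hoxa9 arrays (log2 difference 5.97, SE 0.24, limma adjusted p = 1.504e-05), and the other Hoxa9 probe, with the same transcript in the files, differed by -1.75. Between 69.6% and 77.5% of non-control spots were well above background and no spot was saturated. The number of arrays limits the precision. Both groups lay on each of 3 slides: the first held eGFP replicates 1 and 2 with Hoxa9 replicate 4, the second eGFP replicate 3 with Hoxa9 replicates 1 and 2, and the third eGFP replicate 4 with Hoxa9 replicate 3.

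The pathway's surface molecules changed in both directions, and neither the receptors nor the ligands moved as one. Jag1 and Maml2 rose several-fold and Notch3 fell several-fold, while Dll1 rose and Jag2 fell by less than a doubling. Across all 27110 genes tested, 15.1% were called, 7.71% higher and 7.41% lower (limma, Benjamini-Hochberg adjusted p under 0.05). Among the 9 members 3 were higher, 2 were lower and 4 were not called, and 7 had an unadjusted p under 0.05, as did 27.4% of all genes. This fit did not pair the arrays. With replicate numbers as a block, Dll1 and Jag2 were not called (limma adjusted p = 0.07451 and 0.06514) and Notch1 was (0.04091). Groups did not overlap in 7 of the 9, against 23.5% of all genes. The median difference of the members was 0.18, against -0.08 over all genes. That median is the value of Dll4, a gene near background whose sign was not settled. The range ran from -2.15 for Notch3 to 2.75 for Maml2. All 9 passed the filter on dim probes, which asked for at least 4 of the 8 arrays well above background. In these bulk samples fewer cells of a type and less RNA per cell cannot be told apart.

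**Figure D1:**
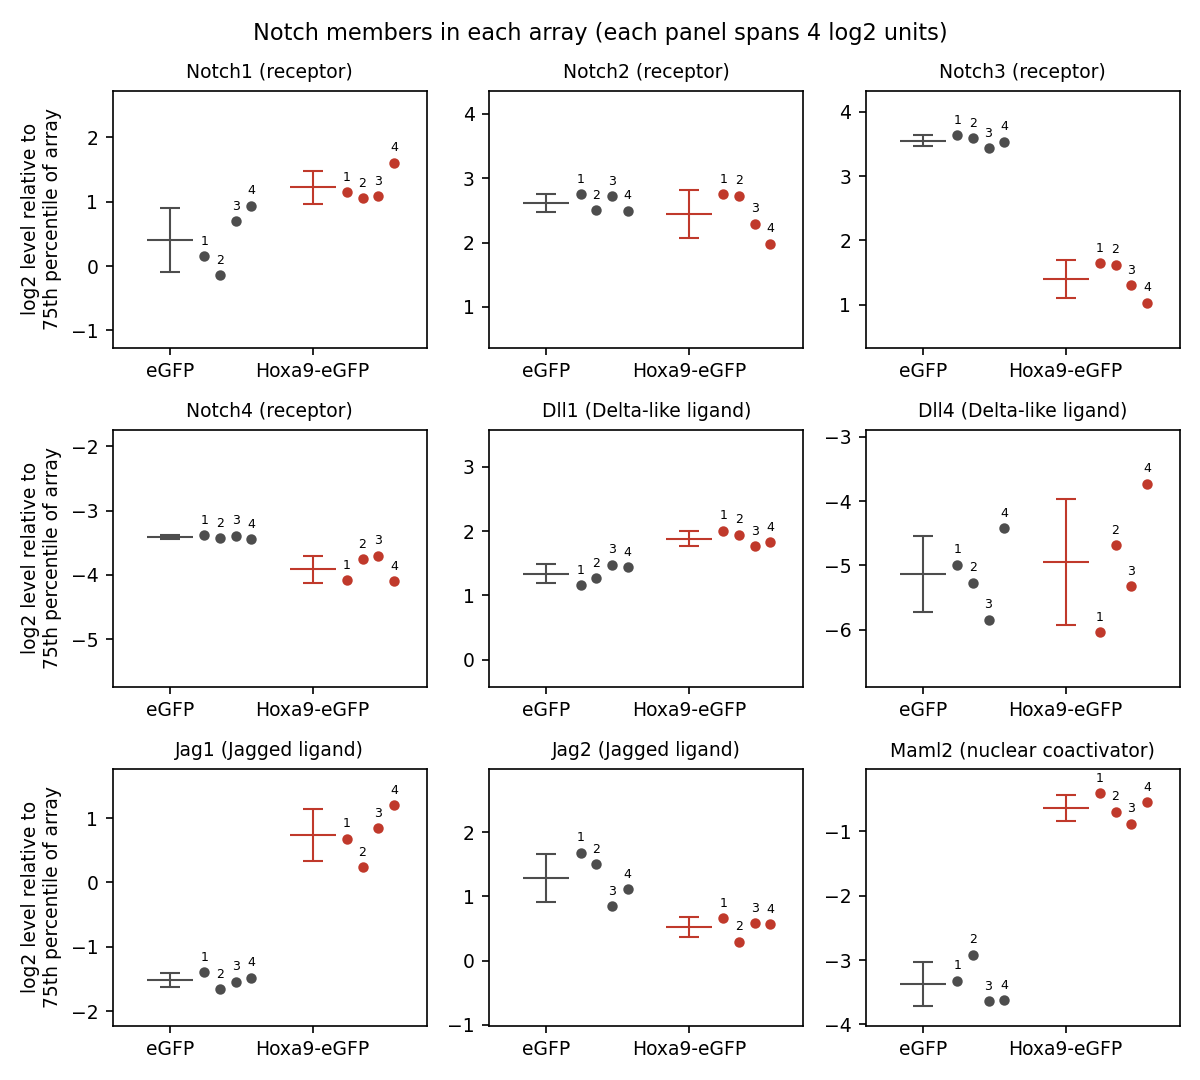
Level of each of the 9 genes at its brightest probe, in log2 units relative to the 75th percentile of the array; points are single arrays with their replicate number, and the bars give the mean and SD of 4 arrays. The Hoxa9-eGFP arrays lie apart from the eGFP arrays in every panel except Notch2 and Dll4, and by most in Notch3, Jag1 and Maml2.

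Notch3 was the receptor that fell. This receptor is best known from the smooth muscle cells and pericytes of vessel walls, and in muscle it is also expressed by satellite cells. Here and for the other genes, arrays are given in the order of their replicate number. Its level was 3.63, 3.59, 3.44 and 3.54 in the eGFP arrays and 1.65, 1.62, 1.31 and 1.03 in the Hoxa9 arrays. The eGFP arrays stood close together and every Hoxa9 array lay well below them. The mean went from 3.55 ± 0.085 (SD, n = 4) to 1.40 ± 0.29, a 4.43-fold fall (log2 difference -2.15, SE 0.17, limma adjusted p = 0.0001614). In scanner units before scaling the signal was 5384 to 8232 in the eGFP arrays and 989 to 1881 in the Hoxa9 arrays. The difference was -2.58, -1.80 and -2.23 within the 3 slides and -1.96 to -2.51 within the 4 same-numbered pairs. It was called under every alternative processing tried, with a difference of -2.23 to -2.02.

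Markers of pericytes and smooth muscle, cells in which Notch3 is also high, were measured beside it. Of 9 measured of 10 listed, 1 was higher and 1 lower (22.2%, against 15.1% of all genes), and Kcnj8 did not pass the filter. Cnn1, a calponin of smooth muscle, was higher by 2.57 and Acta2, smooth muscle actin, fell by 1.33 (SE 0.31, limma adjusted p = 0.02335). The bright adhesion molecule gene Mcam differed by -0.01. The log2 of their summed level was 6.82 to 7.44 in the eGFP arrays and 6.11 to 6.84 in the Hoxa9 arrays, so the ranges overlapped slightly. Within each of the 4 same-numbered pairs the Hoxa9 array had the lower sum, with differences of -1.12 to -0.60 and a mean of -0.78. Bright genes weigh most in such a sum, and Acta2 was the brightest of the list in the eGFP arrays. The mean level of Acta2 was 6.50 there and 5.17 in the Hoxa9 arrays. The mean log2 level of the list differed by 0.15, in the other direction from the sum. The part of these markers in the Notch3 result was not tested.

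Notch1, a receptor of activated satellite cells and many progenitors, gave opposite signs at its 2 probes. At position 5898 its level was 0.15, -0.15, 0.69 and 0.94 in the eGFP arrays and 1.15, 1.05, 1.08 and 1.61 in the Hoxa9 arrays. The groups did not overlap, though the eGFP arrays were widely spread. The difference of 0.81 (SE 0.26, limma adjusted p = 0.078) missed the threshold. It passed with a replicate block (adjusted p = 0.04091) and without the eGFP array of replicate 4 (0.99, adjusted p = 0.04325). At position 8221 the level was -4.20, -3.66, -4.60 and -4.39 in the eGFP arrays and -5.24, -4.92, -4.88 and -4.27 in the Hoxa9 arrays, a difference of -0.62 (SE 0.27, limma adjusted p over probes = 0.1928). The groups overlapped here through Hoxa9 replicate 4, and the signal was only 15.9 to 54.1 scanner units, though all 8 arrays were well above background. Averaging the 2 probes left a difference of 0.10 (limma adjusted p = 0.7473). Within slides the probe at position 5898 differed by 1.61, 0.41 and 0.14.

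Whether the 2 Notch1 probes changed unequally was asked directly, by a test added after their values were seen. The within-array difference between the probes at 8221 and 5898 was lower in the Hoxa9 arrays by 1.43 on the log2 scale, with no overlap between groups (exact two-sided permutation p = 0.02857, the smallest that 4 against 4 can give, 0.04286 after adjustment over the 3 probe pairs compared). That adjusted value passed the threshold only because the Maml2 pair also gave the smallest possible p. With arrays permuted only within same-numbered pairs the exact p was 0.125, the smallest possible, and the call was lost (0.1875 adjusted). For Notch2 the same quantity was -0.03 (exact permutation p = 0.8857, and 0.8857 adjusted).

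Notch2, the receptor that shares much of its role with Notch1 in satellite cells, showed no change that passed the test at either probe. At position 10129 the level was 2.75, 2.50, 2.72 and 2.50 in the eGFP arrays and 2.75, 2.73, 2.29 and 1.98 in the Hoxa9 arrays. The ranges overlapped, with Hoxa9 replicates 3 and 4 below the rest. The difference was -0.18 (SE 0.20, limma 95% interval -0.64 to 0.29, adjusted p = 0.5962), so a change of the size seen in Notch3 lies outside the interval. The probe at position 7448 differed by -0.15 (limma interval -0.64 to 0.34).

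Notch4, a receptor mostly of endothelial cells, was dim. Its level was -3.38, -3.43, -3.39 and -3.45 in the eGFP arrays and -4.09, -3.76, -3.70 and -4.10 in the Hoxa9 arrays. Every Hoxa9 array was below every eGFP array, yet the difference of -0.50 (SE 0.15, limma adjusted p = 0.05323) just missed the threshold. The signal was 28.2 to 63.8 scanner units. Under the stricter filter, which kept probes well above background on 8 of 8 arrays, its adjusted p was 0.04212, and over the alternatives it ran from 0.04165 to 0.1975. Normexp background correction gave a smaller difference of -0.28.

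**Figure D2:**
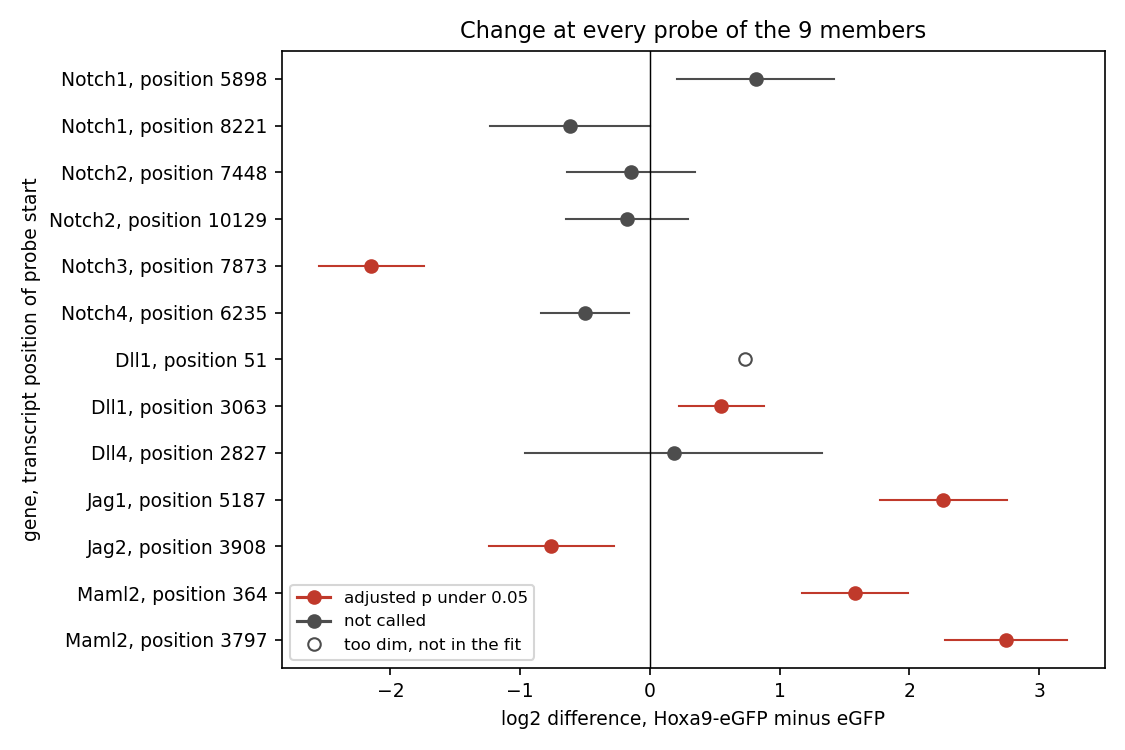
Log2 difference between groups at each of the 13 probes, Hoxa9-eGFP minus eGFP, with the 95% interval of a limma fit over 40773 probes; the open circle is a probe too dim to be fitted. The 2 Notch1 probes lie on opposite sides of 0, the 2 Notch2 probes both lie near 0, and both Maml2 probes lie above 1.

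Among the ligands Jag1 moved most. Jag1 is a Jagged-type ligand of epithelia, vessels and developing muscle. Its level was -1.39, -1.66, -1.54 and -1.48 in the eGFP arrays and 0.68, 0.23, 0.85 and 1.20 in the Hoxa9 arrays. The eGFP arrays were tight, and the lowest Hoxa9 array stood far above all of them. The mean went from -1.52 ± 0.11 (SD, n = 4) to 0.74 ± 0.40, a 4.80-fold rise (log2 difference 2.26, SE 0.21, limma adjusted p = 0.000327). In scanner units the signal was 166 to 250 against 636 to 1114. Within slides it differed by 2.73, 2.0 and 2.33 and within numbered pairs by 1.89 to 2.69, and it was called under every alternative, at 2.01 to 2.43.

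Jag2, the other Jagged ligand, went the opposite way. Its level was 1.68, 1.50, 0.85 and 1.12 in the eGFP arrays and 0.66, 0.30, 0.58 and 0.57 in the Hoxa9 arrays. The groups did not overlap, but eGFP replicate 3 came near the Hoxa9 arrays. Jag2 fell by 0.76 on the log2 scale, a 1.69-fold change (SE 0.21, limma adjusted p = 0.04181). The call was lost in fits blocked by slide (-0.65, limma adjusted p = 0.09428) or by replicate number (limma adjusted p = 0.06514). It was also lost on leaving out any array other than eGFP replicate 3 (limma adjusted p 0.06362 to 0.12).

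Dll1, the Delta-like ligand that differentiating myoblasts present to their neighbours, rose slightly. At its probe at position 3063, printed 10 times on the array, the level was 1.16, 1.27, 1.48 and 1.44 in the eGFP arrays and 2.01, 1.95, 1.76 and 1.83 in the Hoxa9 arrays. All Hoxa9 arrays lay above all eGFP arrays. The difference was 0.55, a 1.46-fold rise (SE 0.14, limma adjusted p = 0.03094). The call was lost with slides as blocks (0.49, adjusted p = 0.0903), with replicate numbers as blocks (adjusted p = 0.07451) and on leaving out any array other than eGFP replicate 3 (limma adjusted p 0.05113 to 0.09475). The second Dll1 probe, for an Ensembl transcript, was well above background on 0 eGFP and 2 Hoxa9 arrays. It was not in the fit.

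Dll4, a Delta-like ligand of sprouting vessels, was near background. It was well above background on 2 eGFP and 3 Hoxa9 arrays, with a signal of 8.99 to 36.5 scanner units. Its level was -4.99, -5.27, -5.84 and -4.42 in the eGFP arrays and -6.04, -4.69, -5.32 and -3.73 in the Hoxa9 arrays. The ranges overlapped almost entirely. The difference of 0.18 (SE 0.50, limma interval -0.96 to 1.33, adjusted p = 0.8348) had no settled sign, being -0.05 without eGFP replicate 3 and -0.22 without Hoxa9 replicate 4.

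Endothelial cells express Notch4, Dll4 and Jag1, and their markers were measured in the same arrays. Of 8 measured of 13 listed, 2 were higher and 0 lower (25%, against 15.1% of all genes). The defining genes Emcn, Erg, Sox18, Tek and Tie1 did not pass the filter. The brightest, the VEGF receptor Kdr, differed by 0.20 (limma adjusted p = 0.5608), while Vwf, the von Willebrand factor gene, rose by 0.65 (limma adjusted p = 0.03585) and the adhesion molecule gene Esam by 1.56. The other 5 measured genes were below 0 without passing the test, from Cldn5 at -0.18 to the cadherin gene Cdh5 at -2.07 (limma adjusted p = 0.1253), and the list's median difference was -0.33 and its mean -0.18. The log2 of their summed level was 3.30 to 3.94 in the eGFP arrays and 3.64 to 4.23 in the Hoxa9 arrays. Their part in the Notch4, Dll4 and Jag1 values was not tested.

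Maml2 had the largest difference of the 9 genes and was the member measured as changed at both of its probes. Mastermind-like proteins bind the Notch intracellular domain on RBPJ and recruit histone acetyltransferases. At position 3797 the level was -3.32, -2.92, -3.64 and -3.63 in the eGFP arrays and -0.40, -0.69, -0.88 and -0.54 in the Hoxa9 arrays. No Hoxa9 array came near the eGFP arrays. The mean went from -3.38 ± 0.34 (SD, n = 4) to -0.63 ± 0.20, a 6.71-fold rise (log2 difference 2.75, SE 0.20, limma adjusted p = 0.0001138).

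At position 364 Maml2 rose less. The level there was -4.70, -4.88, -4.50 and -4.50 in the eGFP arrays and -3.24, -3.29, -2.97 and -2.76 in the Hoxa9 arrays, again without overlap. The rise was 2.99-fold (log2 difference 1.58, SE 0.18, limma adjusted p over probes = 0.0008571), against 13.3% of 40773 probes called and 22.3% without overlap between groups. The signal at this probe was 20.5 to 25.2 scanner units in the eGFP arrays and 55.4 to 73.6 in the Hoxa9 arrays. The rises at the 2 probes differed by 1.17 (exact permutation p = 0.02857, 0.04286 after adjustment over the 3 probe pairs, a test added after the values were seen), a call likewise lost when permuting within same-numbered pairs (exact p = 0.125, 0.1875 adjusted). Here too the adjusted value passed only because the Notch1 pair gave the same smallest p. Within slides the probe at position 3797 differed by 2.57, 3.09 and 2.75. Over the alternatives Maml2 was called each time, with a difference of 1.94 under normexp background correction to 2.90.

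**Figure D3:**
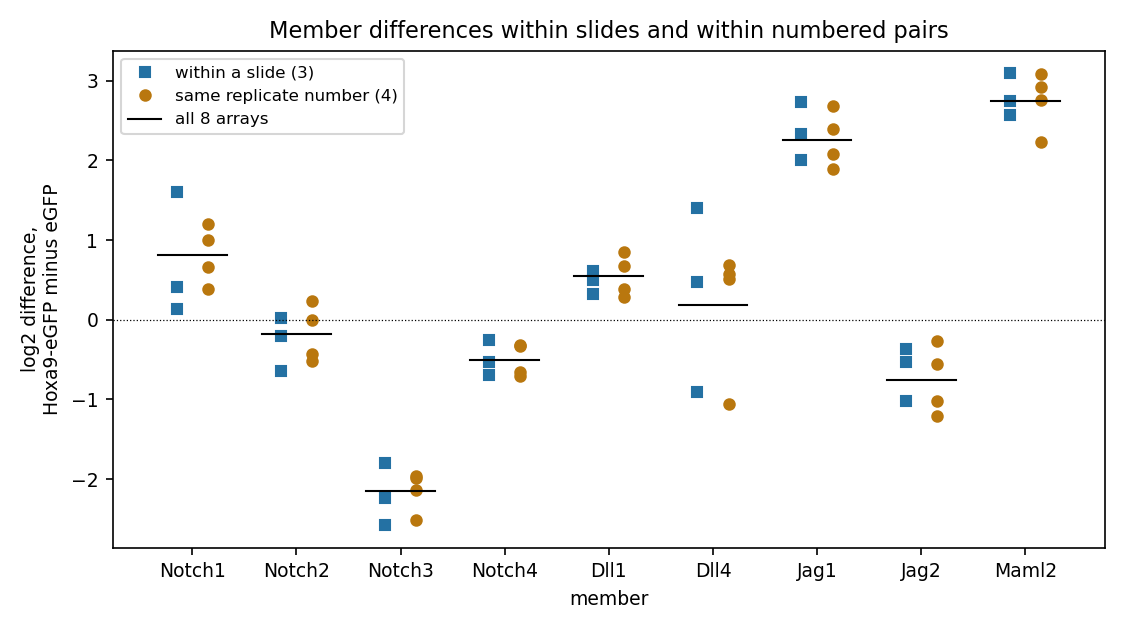
Log2 difference of each gene at its brightest probe, within each of 3 slides (squares), within each of 4 pairs of equal replicate number (circles) and over all 8 arrays (lines). Notch3, Jag1 and Maml2 keep their sign and most of their size in every slide and pair, Notch1, Notch4, Dll1 and Jag2 keep their sign, and Notch2 and Dll4 fall on both sides of 0. The Notch1 probe at position 8221, not drawn, differed by -0.34, -0.48 and -0.49 within slides. Within its numbered pairs it differed by -1.04, -1.26, -0.28 and 0.12.

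Members of one class were also compared with each other, by how far their difference within an array shifted between groups. This asks whether a pair of genes changed unequally, which separate calls do not show. Of 12 pairs, 6 of receptors and 6 of ligands, 8 shifted (exact two-sided permutation p = 0.02857 each, 0.04286 adjusted over the 12 pairs, 0.02857 being the smallest possible with 4 against 4). The adjusted value passed the threshold only because so many pairs reached this smallest p together. With arrays permuted only within numbered pairs the smallest p is 0.125, and 0 pairs could be called.

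Notch3 separated from each of the other receptors. Notch1 shifted against Notch3 by 2.96, Notch2 against Notch3 by 1.97 and Notch3 against Notch4 by -1.65. Notch1 also shifted against Notch4, by 1.31. These Notch1 values rest on the probe at position 5898. With the probe at position 8221, an alternative added after the values were seen, Notch1 shifted against Notch3 by 1.53 (exact permutation adjusted p = 0.04898), but its shift against Notch4 was -0.11 (adjusted p = 0.6571), so that call holds for 1 probe only. Against Notch2 it was -0.44 with that probe (exact permutation adjusted p = 0.4457), the opposite sign. Notch1 against Notch2 (0.99, exact permutation adjusted p = 0.1143) and Notch2 against Notch4 (0.32, adjusted p = 0.2057) were not called.

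Jag1 likewise separated from each of the other ligands. It shifted against Jag2 by 3.02, and the shift of Dll1 against Jag1 was -1.71 and of Dll4 against Jag1 -2.08. Dll1 shifted against Jag2 by 1.31. The shifts of Dll1 against Dll4 (0.37, exact permutation adjusted p = 0.6) and of Dll4 against Jag2 (0.94, adjusted p = 0.2494) were not called.

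The remainder of the pathway was examined through 4 lists of 76 genes, of which 70 were measured. Of these 70 genes 12 were higher and 6 lower (25.7%, against 15.1% of all genes), with a median difference of 0.02 against -0.08 over all genes. These lists and the marker lists were chosen with earlier results of these data known. Their shares of called genes are therefore not independent of those results. Blocking on the slide gave 2 lower genes, against 3 with the array median subtracted, and 2 or 3 on leaving out any array other than Hoxa9 replicate 2. At most that many of the 6 lower calls were thus kept in these fits. Which of Dtx4, Rbpj, Heyl, Hes6, Egfl7 and Dlk1 kept theirs is not given here.

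Among genes that modify, cut or degrade receptors and ligands, 3 of 26 measured were higher and 1 lower, with a median of 0.10. That is 15.4%, near the 15.1% of all genes. Of these, Dtx1, Dtx3l and Dtx4 encode Deltex-type ubiquitin ligases, which act on Notch receptors and other proteins. Dtx3l rose by 1.63 (SE 0.15, limma adjusted p = 0.0003355), Dtx4 fell by 1.38 (SE 0.17, limma adjusted p = 0.001046) and Dtx1 was at least 2.78-fold higher, its signal on the eGFP arrays giving only a bound since none was well above background. Psen2, a catalytic subunit of gamma-secretase, rose by 0.75, from 1.45 ± 0.14 to 2.20 ± 0.18 (SD, n = 4; limma adjusted p = 0.01125). Lfng, the Fringe glycosyltransferase that sets which ligands a receptor answers to, differed by -1.14 (SE 0.54, limma adjusted p = 0.2161), with 3 eGFP and 2 Hoxa9 arrays above background.

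In the nuclear complex 1 gene of 20 was higher and 1 lower (10%), with a median of -0.11. Rbpj, the DNA-binding partner of all 4 receptors, fell by 0.67 (SE 0.14, limma adjusted p = 0.0133). Its level was 2.03, 2.07, 2.32 and 2.33 in the eGFP arrays and 1.42, 1.64, 1.55 and 1.43 in the Hoxa9 arrays, without overlap. Kat2b, a histone acetyltransferase, rose by 1.52 (SE 0.15, limma adjusted p = 0.0003775). The other Mastermind-like genes did not follow Maml2 past the threshold: Maml1 differed by 0.28 (limma adjusted p = 0.4697) and Maml3 by -0.49 (limma adjusted p = 0.1281).

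Genes listed as targets of the pathway moved both ways. Whether each of them answers to Notch in these cells was not tested. Of 13 measured, 4 were higher and 2 lower (46.2%, against 15.1% of all genes). The median difference was -0.23 but the mean 0.13, and Hey2, Nrarp and Calcr did not pass the filter. Among genes of the Hes and Hey families, Heyl fell by 1.82 (SE 0.46, limma adjusted p = 0.03156). Hey1 differed by -0.72 (limma adjusted p = 0.08696) and Hes1 by -0.35 (limma adjusted p = 0.304). Hes6, listed here by family, fell by 0.56 (limma adjusted p = 0.04046), and its fall is not read as a change in Notch output. Hes7 lay on the other side, at 0.53 (limma adjusted p = 0.09742), and Hes5 and Hes2 differed by -0.56 and -0.03 without passing. The list holds 4 collagen genes described as targets of RBPJ in muscle progenitors. Col6a2 rose by 2.66 (SE 0.33, limma adjusted p = 0.00126), Col6a1 by 1.34 and Col5a1 by 0.92, whereas Col5a3 differed by -0.36 (limma adjusted p = 0.3193). Bhlhe41, a transcriptional repressor, rose by 0.81.

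Proteins that bind Notch receptors without being canonical ligands held the largest rises. Of 11 measured, 4 were higher and 2 lower (54.5%, against 15.1% of all genes), with a median of 0.47. Thbs2, a matricellular thrombospondin, rose by 5.08 (SE 0.14, limma adjusted p = 2.812e-06), and Ccn3, a matricellular protein with a Notch-binding part, was at least 81.6-fold higher, having been above background on 0 eGFP arrays. Dner, a Delta-like transmembrane protein of neurons, rose from -0.31 ± 0.35 to 1.78 ± 0.27 (SD, n = 4), and the microfibril gene Mfap2 rose by 0.94. The lower genes were Egfl7, a secreted protein of endothelium (-0.54), and Dlk1, a Delta-like protein of progenitors (-0.50).

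**Figure D4:**
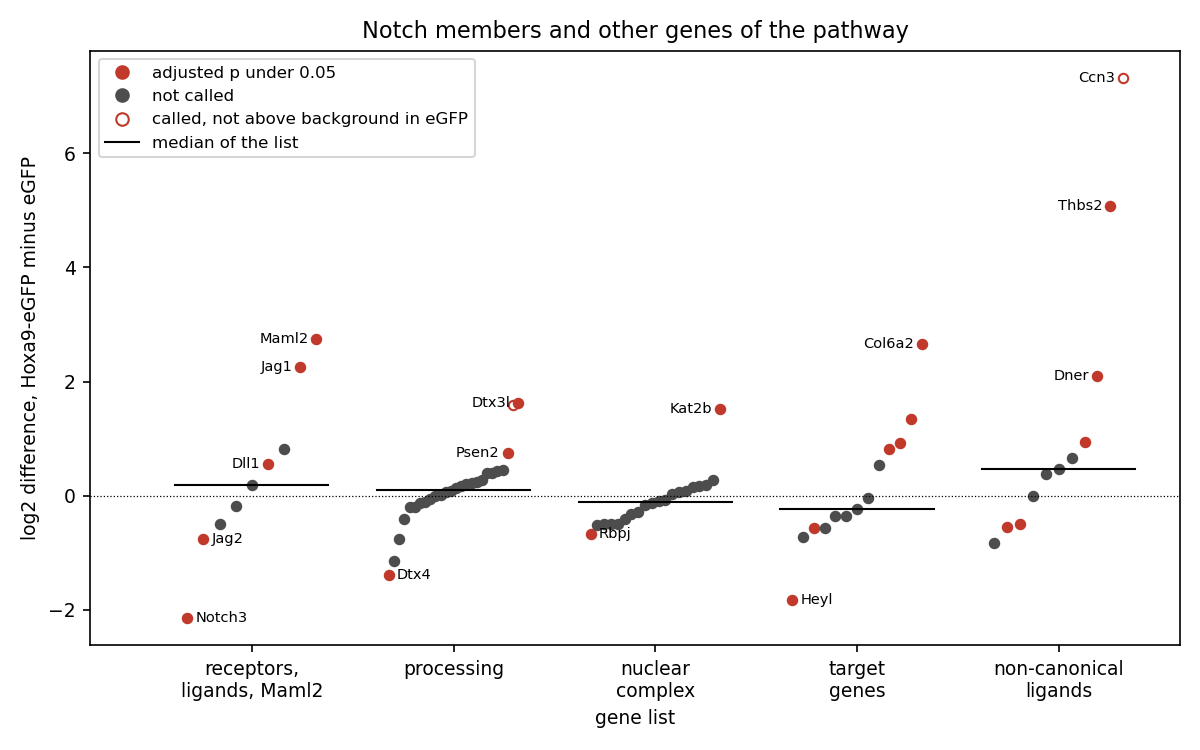
Log2 difference between groups for the 9 genes and for the 70 measured genes of 4 other pathway lists, sorted within each list; lines mark list medians and open circles mark called genes not above background in eGFP, whose fitted difference is no measure of size. Every list has called genes on both sides of 0, and the median lines lie between -0.23 and 0.47.

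Markers of the muscle lineage moved with the groups as well. Of 14 measured myogenic genes 1 was higher and 6 lower (50%, against 15.1% of all genes). The log2 of their summed level was 9.12 to 9.38 in the eGFP arrays and 8.75 to 8.81 in the Hoxa9 arrays, without overlap. The bright markers Chrna1, an acetylcholine receptor subunit, and Itga7, a laminin-binding integrin, fell by 0.58 and 0.77, and the gene that rose was Megf10 (1.26), a scavenger-type receptor of satellite cells. Glial markers, 6 measured of 8 with 0 higher and 1 lower (16.7%), had summed levels of 1.65 to 2.37 against 1.0 to 1.15. The lower gene was Ngfr (-2.0), the neurotrophin receptor p75. The brightest glial gene, the myelin gene Mbp, differed by -1.37 (limma adjusted p = 0.05243). The glial genes Cdh19 and S100b did not pass the filter.

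The summed levels of fibro-adipogenic and of blood markers overlapped between the groups. Of 11 measured fibro-adipogenic genes of 12, 1 was higher and 1 lower (18.2%, against 15.1% of all genes). Their summed levels were 5.95 to 6.49 in the eGFP arrays and 6.03 to 6.60 in the Hoxa9 arrays. The Hoxa9 array had the higher sum in every same-numbered pair, by 0.05 to 0.21. Their mean log2 level differed by -0.10 to 0.32 within these pairs. The bright matrix gene Col1a2 fell by 2.50, the surface antigen gene Ly6a rose by 4.55 and the actin-severing gene Gsn differed by 0.33. Of 8 measured blood markers of 12, 0 were higher and 1 lower (12.5%), with summed levels of 5.27 to 5.93 and 5.15 to 5.60. Within same-numbered pairs these sums differed by -0.40 to 0.04. The mean log2 level of the blood markers was lower in every such pair, with differences of -0.88 to -0.25 and a mean of -0.47. The lower gene was the lysosomal membrane gene Laptm5 (-3.49). Ptprc, Aif1, Lyz2 and Tyrobp did not pass the filter, and the integrin gene Itgam and the receptor gene Csf1r differed by -0.03 and 0.02. The part of these cell markers in the Notch values was not tested.

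The genes whose profile over the 8 arrays lay nearest to each called member were found among 15804 genes with a RefSeq mRNA probe, by the root mean square distance between gene-centred log2 values. For Jag1 these were Irgm2, an interferon-inducible GTPase, at a distance of 0.097 and Pdk4, a pyruvate dehydrogenase kinase, at 0.16. For Notch3 they were Rdh5, a retinol dehydrogenase, at 0.11 and Bend6, a BEN domain protein, at 0.12. For Maml2 they were the serine protease gene Tmprss11c at 0.16 and Ctnnal1, an alpha-catenin relative, at 0.18. Such close neighbours were few: 11 genes lay within 0.25 of Jag1, 12 of Maml2 and 37 of Notch3. The distance was not scaled to the size of a change, so these counts depend on that size as well as on the profile's shape.

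More genes lay this close to Dll1 and Jag2, whose changes were smaller. Within a distance of 0.25 lay 1132 genes for Dll1 and 555 for Jag2. The nearest were Srsf12 and Zfp983 to Dll1, both at 0.094, and Rif1 (0.078) and Stn1 (0.083) to Jag2.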

How the data were processed

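The intensity values are processed signals that the authors made with Agilent Feature Extraction 10.7.3.1, per the submitters' processing notes, from 1-colour arrays hybridised with RNA of 4 eGFP and 4 Hoxa9-eGFP samples. The software subtracted background and detrended each array, per the file headers, which place probes on mm9. A second deposited table, used as an alternative and treated as a score, had lost its decimal points, which were restored.

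Control and marked spots were left out, repeat spots averaged, and each array's 75th percentile subtracted from log2 signals. Probes well above background on at least 4 arrays (40773) were kept, and the highest-mean probe stood for each gene. The group comparison used limma 3.58.1 (R 4.3.3), two-sided, with Benjamini-Hochberg adjustment over 27110 genes. The code was tested on simulated data. A RefSeq table updated gene names. Where a gene was not well above background in any array of a group, its fold is a bound, set against the higher of its own signal and the array's lowest signal well above background.

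The genes and lists were chosen with earlier results of these data known. Named were the 9 genes, up to 4 called genes of lowest adjusted p per pathway list, selected Hes, Hey and Maml genes with Rbpj and Lfng, the 2 brightest markers per list (1 marker is not reported here), and the 2 nearest profiles. Cnn1, Hes6, Egfl7, Dlk1, Hes2, Hes5, Hes7, Col5a3, Cdh5, Cldn5, Esam, Megf10, Ngfr, Ly6a and Laptm5 were named after their values were seen. Deviations from group means correlated at 0.143, 0.228, 0.129 and 0.186 in same-numbered pairs, all over 0.1. The replicate numbers in the sample titles were therefore taken to pair the arrays and served as a block in an alternative. The main fit held the group only and left this pairing out. Hoxa9 replicate 3 with eGFP replicate 4 (0.188) and Hoxa9 replicate 4 with eGFP replicate 3 (0.137) were also over 0.1. The correlations thus do not single out the same-numbered pairing of replicates 3 and 4. The other alternatives changed the normalization, background correction, filter on dim probes, table, probe averaging, slide block, variance model, array weights and a 2-fold minimum, and left out each array in turn.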

Additional observations from a re-analysis of the deposited data

How the results depend on the processing

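Notch3, Jag1 and Maml2 kept their direction and their call in 19 of 19 alternatives. Dll1 and Jag2 each lost their call in 11 of 19, with a highest limma adjusted p of 0.09939 and 0.12, and Notch1 and Notch4 passed it in 4 and 3. With the array median, no filter on dim probes, the slide block, the replicate block or a 2-fold minimum, the count of members called lower was 1, Notch3. It was 1 to 2 on leaving out single arrays. The count of members called higher stayed between 2 and 4. Dll4 turned negative with array weights (-0.11) and without eGFP replicate 3 (-0.05) or Hoxa9-eGFP replicate 4 (-0.22), ran from -0.22 to 0.55 on leaving out single arrays, and it had no value when probes had to be above background on all 8 arrays. Other pathway genes called lower numbered 3 with the array median, 2 with the slide block and 2 to 5 on leaving out single arrays. With a 2-fold minimum 1342 genes were higher and 1130 lower, and genes called lower numbered 1299 to 1884 on leaving out single arrays, the lowest being without eGFP replicate 2. Under the replicate block 0 member pairs and 0 pairs of probes of one gene were called, since 4 pairs cannot give an exact p below 0.125. It changed no other call of a member than those of Notch1, Dll1 and Jag2. The cause of these shifts was not tested. Leaving out arrays was not run for the pair tests. Signal near background limits Dll4, Notch4, the Notch1 probe at position 8221 and the second Dll1 probe.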
